A study of Mus musculus with 24 samples.

Results

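BV-2 cells that received cannabidiol (CBD) and then lipopolysaccharide (LPS) were compared with untreated BV-2 cells. The arrays were chosen by their condition labels, which gave 2 arrays of CBD_LPS and 6 arrays of Cntr among the 24 arrays of the series. In the CBD_LPS group the cells were kept with 10 µM CBD for 2 h, and LPS at 100 ng/ml was then present for another 4 h. The Cntr cells received neither agent. For some genes that rose or fell, CBD_LPS was also set against the 2 CBD arrays (10 µM, 6 h, no LPS) and the 6 LPS arrays (100 ng/ml, 4 h, no CBD). For the other genes only CBD_LPS and Cntr are given, so their changes are not assigned to either agent. The labels do not say whether Cntr cells received the ethanol in which CBD was dissolved, so CBD and its solvent cannot be told apart here. BV-2 is an immortalized mouse line with microglial features, and every group consists of this line alone. The methods call the arrays independent but give a number of replicates per treatment that differs from the 2 CBD_LPS arrays in the labels, and neither source says that each array had a culture of its own. The p-values therefore reflect only how far these arrays differ, which may be technical.

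LPS is a component of the outer membrane of Gram-negative bacteria that macrophages and microglia sense through Toll-like receptor 4. The receptor activates NF-kB and, through type I interferon, a further set of interferon-stimulated genes, and induced inhibitors such as IkB proteins and A20 then limit the signal. CBD is a phytocannabinoid without the intoxicating action of THC. Cells short of amino acids or under oxidative or endoplasmic reticulum stress phosphorylate eIF2alpha and translate ATF4, which induces genes of amino acid supply (the integrated stress response), while electrophiles and oxidants release NRF2, which induces genes of glutathione and thioredoxin metabolism.

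All values are normalized log2 signals of single probes, 1 probe per gene, and values of a group are given in the order replicate 1, replicate 2 for CBD_LPS and as lowest, median and highest for the 6 Cntr arrays. A gene was called higher or lower where the Benjamini-Hochberg adjusted p of the limma fit over all probes was under 0.05. A probe counted as detected on an array where its detection p was under 0.05. Of the probes, between 40.6% and 44.8% were detected on an array. The signals come from bulk RNA, so a lower signal from fewer cells that hold a transcript and one from less transcript per cell cannot be told apart. Of 16 microglial markers 14 had a probe, of which 6 were detected on both CBD_LPS arrays and 10 on all Cntr arrays. P2ry12, a purinergic receptor of resting microglia, and Sall1, a microglial transcription factor, were detected on no array of either group. No marker of astrocytes, neurons, oligodendrocytes, fibroblasts, endothelial cells or lymphocytes was called. For these cell types a marker counted as detected in a group where at least 1 of its arrays detected it. No fibroblast marker was detected, and 1 neuron marker and 1 oligodendrocyte marker were detected in both groups. Detected were 1 of 8 astrocyte markers in CBD_LPS and 3 of 8 in Cntr, and 2 of 6 endothelial markers in CBD_LPS and 1 of 6 in Cntr. For lymphocytes these were 0 of 5 in CBD_LPS and 3 of 5 in Cntr. With 6 arrays against 2, Cntr had more chances of a detection, so these counts do not compare the groups.

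Of 24611 probes, 3073 (12.5%) were called, 1431 (5.81%) higher and 1642 (6.67%) lower in CBD_LPS than in Cntr. Among them 405 probes were higher, and 255 lower, by 2-fold or more. With 1 probe per gene, 1001 of 15161 genes were called higher and 1200 lower. Both CBD_LPS arrays lay on the same side of the Cntr mean for 3069 of the called probes, and replicate 2 lay farther from it than replicate 1 for 2238 (72.8%). The calls rest on the mean of these same 2 arrays, so the common side was largely set by the call. Neither count was made over all probes. The values of the 2 groups did not overlap for 5107 of the 24611 probes (20.8%). Without CBD_LPS replicate 2 the number of called probes was 1241, of which 720 were higher and 521 lower, against 3053 without CBD_LPS replicate 1. In both fits the remaining CBD_LPS array was assumed to vary like the arrays of the other groups. When arrays were scaled to equal medians instead of being quantile-normalized, 726 probes were called, 520 higher and 206 lower.

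**Figure D1:**
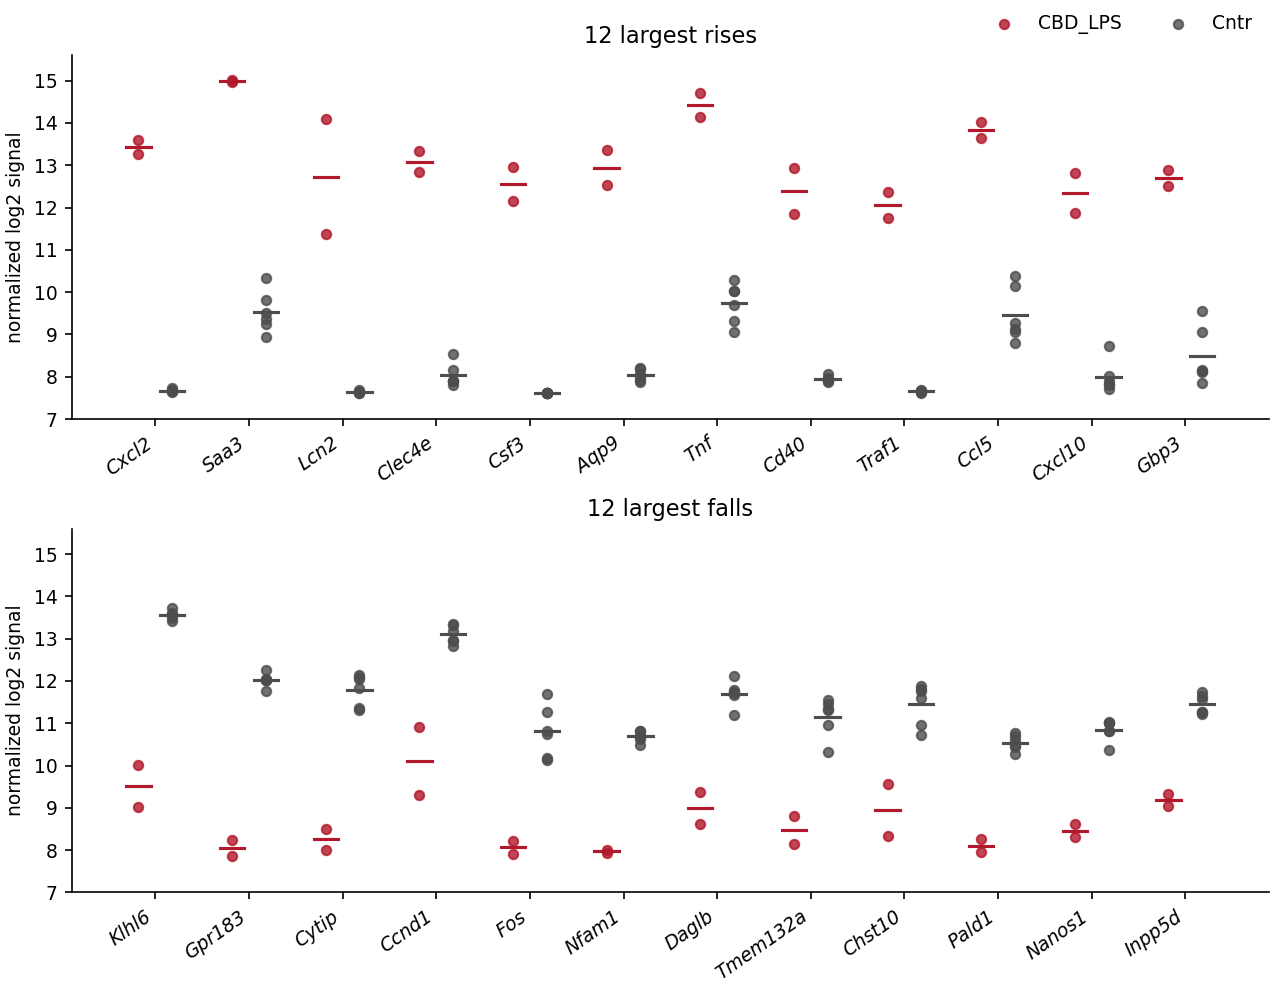
Normalized log2 signal (vertical axis) of the genes with the largest rises (upper panel) and the largest falls (lower panel) among called genes whose groups did not overlap. Each point is an array, with the 2 CBD_LPS arrays left of the 6 Cntr arrays, and the bars are group means; Cxcl2 stood at 13.26 and 13.60 in CBD_LPS and at 7.64 to 7.72 in Cntr, and Klhl6 at 10.01 and 9.02 in CBD_LPS and at 13.41 to 13.73 in Cntr.

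Cxcl2, Saa3, Lcn2 and Csf3 were among the 12 largest rises without overlap between the groups. Cxcl2, a neutrophil chemokine, had signals of 13.26 and 13.60 in CBD_LPS, against 7.64, 7.66 and 7.72 in Cntr, where no array detected it. It was at least 51.8-fold higher in CBD_LPS, where the bound sets the CBD_LPS mean against the lowest detected signal of the Cntr arrays (log2 fold change 5.76 ± 0.21 SE, adjusted p = 1.7e-12). Saa3, an acute phase apolipoprotein, had 14.97 and 15.01 in CBD_LPS and 8.95, 9.44 and 10.33 in Cntr. Saa3 was 43.7-fold higher (log2 5.45 ± 0.91 SE, adjusted p = 0.00037). Lcn2, the siderophore-binding lipocalin 2, had 11.37 and 14.09 in CBD_LPS and was undetected in Cntr (7.62, 7.64 and 7.68), at least 31.9-fold higher (adjusted p = 0.00076), but without CBD_LPS replicate 2 its adjusted p was 0.071. Csf3, the granulocyte growth factor G-CSF, was likewise undetected in Cntr and had 12.17 and 12.96 in CBD_LPS, at least 28.4-fold higher (adjusted p = 6.3e-09), while its other probe gave 0.91 in log2 (adjusted p = 0.14).

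Of 18 measured proinflammatory cytokine genes 4 rose and none fell, with a median log2 fold change of 0.43, against -0.0030 over all genes. Tnf, tumor necrosis factor, had 14.71 and 14.15 in CBD_LPS and 9.05, 9.87 and 10.29 in Cntr, a 25.8-fold rise (log2 4.69 ± 0.37 SE, adjusted p = 7.4e-08). Il1b, interleukin 1 beta, had 13.29 and 10.36 in CBD_LPS and 7.69, 7.74 and 7.83 in Cntr. Both CBD_LPS arrays were above all Cntr arrays although they differed by 2.93, and the rise was 16.9-fold (log2 4.08 ± 0.52 SE, adjusted p = 2.1e-05). Il6 rose by at least 2.93-fold (9.50 and 9.06 in CBD_LPS, undetected in Cntr, adjusted p = 0.022), a call that was lost without either CBD_LPS array (adjusted p = 0.18 and 0.10). Il1a, interleukin 1 alpha, had 10.09 and 8.57 in CBD_LPS and 7.63, 7.65 and 7.68 in Cntr and did not pass the test (log2 1.68 ± 0.70 SE, adjusted p = 0.14), but passed it with the authors' values or without background correction (2.86, adjusted p = 0.0017) and with both groups fitted alone (0.029). Of 18 measured chemokine genes 4 rose and none fell. Ccl5, a T cell chemokine, had 14.02 and 13.65 in CBD_LPS and 8.79, 9.20 and 10.39 in Cntr (20.6-fold, adjusted p = 6.4e-07). Cxcl10, an interferon-induced chemokine, had 12.83 and 11.88 in CBD_LPS and 7.72, 7.87 and 8.72 in Cntr (20.4-fold, adjusted p = 1.4e-07). Cxcl16, a membrane-bound chemokine, rose by 0.82 on the log2 scale. Ccl2, the monocyte chemokine MCP-1, had 12.67 and 12.29 in CBD_LPS and 10.07, 11.20 and 13.06 in Cntr. Its groups overlapped, and the difference of 1.15 in log2 did not pass the test (95% interval -0.03 to 2.34, adjusted p = 0.24, and 0.042 without Cntr replicate 4).

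Inflammatory effectors and receptors rose in 12 of 21 measured genes and fell in none, with a median log2 fold change of 1.18. Without CBD_LPS replicate 2, 6 of them were called higher. Clec4e, the C-type lectin receptor Mincle, had 12.83 and 13.33 in CBD_LPS and 7.81, 7.90 and 8.53 in Cntr (33.2-fold, adjusted p = 4.5e-07). Cd40, a costimulatory receptor, had 12.92 and 11.84 in CBD_LPS and 7.88, 7.95 and 8.07 in Cntr (21.6-fold, adjusted p = 6.3e-07), while its other probe gave 0.05 in log2 (adjusted p = 0.44). In Cntr both genes lay near the lower end of the scale. The prostacyclin receptor gene Ptgir had 9.32 and 12.37 in CBD_LPS and 7.70, 7.83 and 7.97 in Cntr, a rise of 3.02 in log2 (adjusted p = 0.0039) whose call was lost without CBD_LPS replicate 2 (adjusted p = 0.31). Nos2, inducible nitric oxide synthase, rose by at least 2.09-fold from the probe used here (adjusted p = 0.024), while its other probe gave a log2 fold change of -0.01 (adjusted p = 0.77), and the call was lost without either CBD_LPS array (adjusted p = 0.25 and 0.070). Ptgs2, cyclooxygenase 2, stood 1.30 higher in log2 without passing the test (adjusted p = 0.063), but passed it with the authors' values (2.34, adjusted p = 0.00012), without background correction, with median scaling (0.018), after the filter on dim probes (0.033) and with both groups fitted alone (0.013). Traf1, a signaling adaptor of TNF receptors outside these lists, was undetected in Cntr and had 11.75 and 12.37 in CBD_LPS, at least 20.1-fold higher (adjusted p = 6.5e-12).

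NF-kB subunits and their regulators rose in 9 of 12 measured genes, with a median log2 fold change of 1.21, and none fell. Nfkbiz, the nuclear cofactor IkB zeta, had 13.57 and 13.66 in CBD_LPS and 9.49, 9.64 and 9.88 in Cntr (15.3-fold, adjusted p = 0.00011). Nfkbia, the inhibitor IkB alpha, had 9.96 and 10.01 in CBD_LPS and 7.98, 8.10 and 8.56 in Cntr. Its rise was 1.82 ± 0.32 (SE) in log2 (adjusted p = 0.00060). Ikbke, a kinase of interferon regulatory factors, rose by 3.08, Relb by 2.30 and Nfkb2, which encodes p100, by 1.96 in log2. Feedback regulators rose in 12 of 20 measured genes and fell in 1, Zfp36l1, an RNA-binding protein (log2 -1.90, adjusted p = 7.2e-05). Tnfaip3, the ubiquitin-editing enzyme A20, had 12.08 and 12.24 in CBD_LPS and 7.97, 8.44 and 8.99 in Cntr (12.8-fold, adjusted p = 6.5e-06). Socs3, an inhibitor of cytokine receptor signaling, rose by 2.93 and Irak3, an inhibitor of Toll-like receptor signaling, by 2.86. The MAP kinase phosphatase gene Dusp1 had 12.15 and 13.91 in CBD_LPS and 9.54, 10.23 and 11.77 in Cntr, and its call (log2 2.48, adjusted p = 0.044) was lost without CBD_LPS replicate 2 (adjusted p = 0.51), without any single one of Cntr replicates 2, 3, 5 and 6, with array weights (0.11) and with both groups fitted alone (0.12). Among Toll-like receptor genes and adaptors, 4 of 18 rose and 1 fell, against 2 and 0 without CBD_LPS replicate 2 or with median scaling. Tlr2 rose by 1.26 (adjusted p = 0.0026, 0.10 without CBD_LPS replicate 1 and 0.36 with median scaling), whereas Tlr4, the LPS receptor itself, had 9.48 and 10.06 in CBD_LPS and 10.15, 10.22 and 10.53 in Cntr and did not pass the test (log2 -0.52 ± 0.24 SE, adjusted p = 0.20).

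Interferon-stimulated genes rose in 14 of 25 measured genes and fell in 1, with a median log2 fold change of 1.44. Gbp3, an interferon-induced GTPase, had 12.89 and 12.52 in CBD_LPS and 7.86, 8.15 and 9.56 in Cntr (18.7-fold, adjusted p = 1.3e-05). Rsad2, the antiviral enzyme viperin, had 14.42 and 14.97 in CBD_LPS and 9.05, 10.77 and 13.07 in Cntr (rise 3.70 ± 0.66 SE, adjusted p = 0.00068). Isg15, a ubiquitin-like protein, had 14.31 and 12.65 in CBD_LPS and 8.02, 9.55 and 11.70 in Cntr. No Cntr array reached a CBD_LPS array for these 3 genes, and Isg15 rose by 3.69 ± 0.72 (SE) in log2 (adjusted p = 0.0015, and 0.051 without CBD_LPS replicate 1). Irf7, a regulator of type I interferon, had 10.09 and 9.12 in CBD_LPS and 7.82, 8.15 and 10.34 in Cntr and did not pass the test. The gene that fell was Irf8, a transcription factor of the myeloid lineage (9.62 and 10.11 in CBD_LPS, against 10.47, 10.75 and 11.46 in Cntr, adjusted p = 0.017). Its call was lost without CBD_LPS replicate 1 (adjusted p = 0.23), with median scaling (0.42) and with both groups fitted alone (0.075), and the last of these also ended the calls of Isg15 (0.065) and Rsad2 (0.067). Of the 15 called genes of this list, 13 had the higher signal on CBD_LPS replicate 1, and with replicate 2 alone 7 genes of the list were called higher, against 12 with replicate 1 alone.

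The 250 bases before the transcription start of 4 genes of these groups show the motifs that NF-kB and interferon-activated factors are known to bind. The promoters are from RefSeq (GRCm38.p6) and are printed 5′ to 3′ on the strand of the gene, and capitals mark the matches. Cxcl2 lies on the plus strand (chr5:90903649-90903898), and Nfkbia (chr12:55492648-55492897), Cxcl10 (chr5:92348890-92349139) and Isg15 (chr4:156200819-156201068) on the minus strand. In Cxcl2 and Nfkbia the capitals mark a form of the NF-kB site (GGGA, TT and CC with 1 base of any kind between them) or its reverse complement, in Isg15 the interferon-stimulated response element (GAAA and GAAA with 2 bases of any kind between them), and in Cxcl10 both.
Cxcl2: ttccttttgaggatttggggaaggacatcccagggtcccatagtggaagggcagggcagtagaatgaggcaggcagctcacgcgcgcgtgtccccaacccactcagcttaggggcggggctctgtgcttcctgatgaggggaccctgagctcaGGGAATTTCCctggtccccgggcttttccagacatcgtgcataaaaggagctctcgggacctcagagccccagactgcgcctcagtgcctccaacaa
Nfkbia: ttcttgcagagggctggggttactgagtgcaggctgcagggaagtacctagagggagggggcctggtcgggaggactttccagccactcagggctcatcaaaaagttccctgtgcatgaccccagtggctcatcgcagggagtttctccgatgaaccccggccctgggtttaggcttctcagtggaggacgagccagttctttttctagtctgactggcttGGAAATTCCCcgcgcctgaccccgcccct
Cxcl10: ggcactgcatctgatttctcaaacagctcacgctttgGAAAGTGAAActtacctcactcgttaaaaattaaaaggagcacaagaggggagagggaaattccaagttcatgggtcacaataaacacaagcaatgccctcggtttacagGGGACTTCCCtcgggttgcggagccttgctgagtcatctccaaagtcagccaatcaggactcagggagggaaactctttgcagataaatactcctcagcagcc
Isg15: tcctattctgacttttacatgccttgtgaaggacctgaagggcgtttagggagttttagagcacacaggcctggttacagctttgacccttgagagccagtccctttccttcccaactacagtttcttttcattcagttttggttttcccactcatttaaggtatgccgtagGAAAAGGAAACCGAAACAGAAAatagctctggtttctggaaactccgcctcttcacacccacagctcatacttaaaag

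Both motifs were searched on both strands in the 250 bases before every start in the RefSeq table, which holds 12242 of the 15161 measured genes. The NF-kB site was found before 306 of 27025 genes (1.13%), before 4 of 9 genes of NF-kB subunits and regulators and before 4 of 13 chemokine genes. The interferon-stimulated response element was found before 936 genes (3.46%) and before 13 of 23 interferon-stimulated genes. The 3 matches in Isg15 overlap one another and begin 78, 72 and 66 bases before the start, and the NF-kB matches begin 97 bases before it in Cxcl2, 29 in Nfkbia and 103 in Cxcl10. A match describes letters only.

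Regulators of the integrated stress response rose in 12 of 21 measured genes and fell in 1, with a median log2 fold change of 1.15. Chac1, which degrades glutathione, had 11.98 and 12.02 in CBD_LPS and 7.79, 8.22 and 8.76 in Cntr (13.9-fold, adjusted p = 0.00062). Ddit3, the transcription factor CHOP, had 10.24 and 12.69 in CBD_LPS and 8.23, 8.30 and 8.51 in Cntr. The CBD_LPS arrays differed by 2.44 in log2, with both above every Cntr array, and the rise was 8.66-fold (log2 3.11 ± 0.49 SE, adjusted p = 0.00022). Nupr1, a stress-induced chromatin protein, rose by 3.35 in log2, and Ppp1r15a, a phosphatase subunit that reverses eIF2alpha phosphorylation, by 2.69. Trib3, a pseudokinase, was undetected in Cntr and had 9.24 and 10.28 in CBD_LPS, at least 4.07-fold higher (adjusted p = 1.0e-05). Atf4 itself had 12.76 and 13.01 in CBD_LPS and 10.79, 11.25 and 11.66 in Cntr (log2 1.71 ± 0.35 SE, adjusted p = 0.0022). Its adjusted p was 0.20 with median scaling and 0.061 without CBD_LPS replicate 2. The gene that fell was Eif2ak1, the heme-regulated kinase of eIF2alpha (11.01 and 10.94 in CBD_LPS, against 11.45, 11.51 and 11.67 in Cntr, adjusted p = 3.3e-05, and 0.87 with median scaling). Of the list, 13 genes were called higher without CBD_LPS replicate 1 and 7 without replicate 2.

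Several genes of amino acid supply were also higher. Slc7a11, the cystine importer xCT, had 11.15 and 12.59 in CBD_LPS and 7.80, 7.84 and 7.88 in Cntr (16.3-fold, log2 4.03 ± 0.39 SE, adjusted p = 9.1e-07). Slc6a9, a glycine transporter, had 12.36 and 13.45 in CBD_LPS and 9.76, 10.21 and 10.64 in Cntr (log2 2.68, adjusted p = 2.6e-05). Both genes were higher on CBD_LPS replicate 2, as were 5 of the 6 called amino acid transporters. In all 5 of 17 measured transporter genes rose, among them Slc1a4 (2.46 in log2) and Slc3a2, the heavy chain shared by several exchangers (2.44), and 1 fell, Slc7a6 (-1.34, adjusted p = 0.093 with median scaling). Slc7a5, a leucine transporter, had 13.70 and 13.52 in CBD_LPS and 12.87, 13.10 and 13.39 in Cntr, which did not pass the test (adjusted p = 0.14). Of 15 measured cytosolic aminoacyl-tRNA synthetases, which charge tRNAs, 7 rose by 0.64 to 1.15 in log2 and none fell, and with median scaling none of the list was called. Cars, for cysteine, had 11.62 and 11.87 in CBD_LPS and 10.40, 10.64 and 10.77 in Cntr (log2 1.15, adjusted p = 0.00019), with 0.02 at its other probe (adjusted p = 0.73). For Aars, for alanine, the 2 probes disagreed, with a rise of 1.09 at the brighter one and a fall of 0.69 at the other (adjusted p = 6.8e-05 and 0.020). Without CBD_LPS replicate 2, 4 cytosolic synthetases were called higher. Of 14 mitochondrial synthetases 4 rose and 2 fell, against 0 and 1 without CBD_LPS replicate 2. Enzymes of serine, asparagine and one-carbon metabolism rose in 5 and fell in 3 of 17 genes, against 1 and 0 without CBD_LPS replicate 2 and 2 and 0 with median scaling. The mitochondrial folate enzymes Mthfd2 (13.93 and 14.02 in CBD_LPS, 12.60, 12.94 and 13.12 in Cntr, log2 1.08) and Aldh1l2 (9.06 and 9.68 in CBD_LPS, 7.80, 8.10 and 8.33 in Cntr, log2 1.30) rose. Slc19a1, a folate carrier, fell (log2 -0.93, adjusted p = 0.0044), and asparagine synthetase, Asns, rose by 0.75 (adjusted p = 0.021). Without CBD_LPS replicate 2 the adjusted p was 0.070 for Aldh1l2, 0.35 for Slc19a1 and 0.38 for Asns, and with median scaling it was 0.65 for Slc19a1, 0.79 for Asns and 0.51 for Mthfd2.

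NRF2 targets rose in 14 of 25 measured genes and fell in 1, with a median log2 fold change of 0.63. Srxn1, sulfiredoxin, had 12.56 and 13.95 in CBD_LPS and 10.32, 10.64 and 11.11 in Cntr (log2 2.56 ± 0.37 SE, adjusted p = 8.5e-05). Sqstm1, the autophagy receptor p62, had 14.98 and 15.27 in CBD_LPS and 12.26, 12.80 and 13.004 in Cntr (log2 2.38 ± 0.26 SE, adjusted p = 5.3e-06). Gclm, a subunit of the enzyme that starts glutathione synthesis, had 13.38 and 14.46 in CBD_LPS and 11.89, 12.27 and 12.68 in Cntr (log2 1.62, adjusted p = 0.0024), a call lost without CBD_LPS replicate 2 (log2 1.08, adjusted p = 0.17) and with median scaling (0.13). In all 3 genes replicate 2 was the higher array, as it was for 14 of the 15 called genes of the list, and 4 genes were called higher without it, against 15 without replicate 1. Hmox1, heme oxygenase 1, had 15.31 and 15.20 in CBD_LPS and 13.09, 13.30 and 13.67 in Cntr (log2 1.91, adjusted p = 0.0014, and 0.13 with median scaling). The quinone reductase gene Nqo1 was undetected in Cntr and rose by at least 1.48-fold (7.88 and 8.73 in CBD_LPS, adjusted p = 0.0062, and 0.50 without CBD_LPS replicate 2), with 0.01 at its other probe (adjusted p = 0.80). Among genes of heme and iron handling 4 of 17 rose and 1 fell, against 2 and 1 without CBD_LPS replicate 2. Slc40a1, the iron exporter ferroportin, had 12.58 and 14.07 in CBD_LPS and 9.67, 10.11 and 10.56 in Cntr (9.50-fold, adjusted p = 0.0024, and 0.12 without CBD_LPS replicate 2). Slc11a2, the iron importer DMT1, rose by 2.16 in log2, while the ferritin chains Fth1 (log2 0.09) and Ftl1 (log2 -0.04) did not pass the test.

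Metal-binding genes were split. Mt2, metallothionein 2, had 12.67 and 13.09 in CBD_LPS and 9.39, 10.04 and 10.31 in Cntr (7.86-fold, log2 2.97 ± 0.24 SE, adjusted p = 1.3e-07). Mt1 stood near the top of the scale in both groups, at 15.04 and 14.66 in CBD_LPS and 14.60, 14.70 and 14.97 in Cntr, and did not pass the test (log2 0.12, 95% interval -0.07 to 0.30). Of the 15 genes of metallothioneins and zinc transporters 3 rose, Mt2 and the zinc transporters Slc30a1 (2.06) and Slc39a4 (2.16), and 1 fell, Slc30a5 (-0.76). With median scaling the calls of Slc39a4 (adjusted p = 0.070) and Slc30a5 (0.75) were lost, the first also without CBD_LPS replicate 2 (0.15). Of 25 measured chaperones and degradation factors of the endoplasmic reticulum 1 rose (4%) and 2 fell (8%), and 11 had an unadjusted p under 0.05. The gene that rose was Herpud1, a degradation factor, with 12.02 and 11.63 in CBD_LPS and 8.93, 9.53 and 9.89 in Cntr (log2 2.35 ± 0.22 SE, adjusted p = 6.6e-07). Hspa5, the chaperone BiP, had 9.83 and 10.04 in CBD_LPS and 8.67, 9.07 and 10.26 in Cntr and did not pass the test (log2 0.72, adjusted p = 0.20, and 0.029 without Cntr replicate 6), and Pdia4, a disulfide isomerase, and Ero1b, an oxidase, fell by 0.47 and 0.65. Of 17 cytosolic and mitochondrial heat shock genes none rose and 2 (11.8%) fell, Bag3 by 0.63 and Dnajb1 by 0.41 in log2. In that list 5 had an unadjusted p under 0.05. With median scaling the adjusted p was 0.89 for Pdia4, 0.54 for Ero1b, 0.86 for Bag3 and 0.97 for Dnajb1. The calls of Ero1b, Bag3 and Dnajb1 were also lost without CBD_LPS replicate 2 (adjusted p = 0.32, 0.064 and 0.33) and those of Ero1b and Pdia4 without replicate 1 (0.062 and 0.33).

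The promoters of 4 genes of the stress groups are shown with the motifs of their known regulators, again 250 bases before the start from RefSeq (GRCm38.p6). Chac1 (chr2:119350992-119351241) and Gclm (chr3:122245307-122245556) lie on the plus strand, Atf3 (chr1:191183334-191183583) and Slc7a11 (chr3:50443614-50443863) on the minus strand. Capitals mark TGATGNAA, the core of the C/EBP-ATF response element, or its reverse complement in Chac1, Atf3 and Slc7a11, and TGACNNNGC, the core of the antioxidant response element, as its reverse complement in Gclm.
Chac1: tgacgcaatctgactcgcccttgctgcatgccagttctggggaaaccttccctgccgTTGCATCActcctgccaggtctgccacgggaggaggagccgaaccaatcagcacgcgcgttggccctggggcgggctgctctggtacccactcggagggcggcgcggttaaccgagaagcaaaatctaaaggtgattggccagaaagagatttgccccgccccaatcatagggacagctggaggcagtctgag
Atf3: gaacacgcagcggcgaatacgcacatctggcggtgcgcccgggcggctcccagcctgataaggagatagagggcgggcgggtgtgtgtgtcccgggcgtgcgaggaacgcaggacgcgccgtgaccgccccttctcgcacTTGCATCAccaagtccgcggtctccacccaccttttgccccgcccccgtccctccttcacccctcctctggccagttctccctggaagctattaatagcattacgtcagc
Slc7a11: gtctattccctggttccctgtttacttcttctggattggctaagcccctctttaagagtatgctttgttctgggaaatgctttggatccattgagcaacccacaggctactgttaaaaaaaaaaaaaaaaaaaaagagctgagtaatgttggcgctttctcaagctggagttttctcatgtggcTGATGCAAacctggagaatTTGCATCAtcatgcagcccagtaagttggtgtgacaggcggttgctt
Gclm: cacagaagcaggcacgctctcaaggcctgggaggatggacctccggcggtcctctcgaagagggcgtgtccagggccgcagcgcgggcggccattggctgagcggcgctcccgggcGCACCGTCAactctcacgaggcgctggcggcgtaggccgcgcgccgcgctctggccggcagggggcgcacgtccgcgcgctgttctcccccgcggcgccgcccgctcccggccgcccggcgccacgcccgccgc

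TGATGNAA was found, on either strand, before 1056 of 27025 genes (3.91%), before 5 of 19 regulators of the integrated stress response, 3 of 9 cytosolic tRNA synthetases and 1 of 12 amino acid transporters. That transporter is Slc7a11, whose 2 matches begin 66 and 47 bases before the start. TGACNNNGC was found before 3112 genes (11.5%) and before 5 of 20 NRF2 targets. It was also found before 6 of 23 interferon-stimulated genes, 4 of 12 amino acid transporters and 4 of 12 genes of metallothioneins and zinc transporters, so its share among NRF2 targets was not the highest. Ddit3, Slc3a2 and Sqstm1 rose with no match to either motif in these 250 bases.

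AP-1 factors rose in 6 and fell in 1 of 13 measured genes. Fos, an immediate early gene, was the one that fell, with 8.23 and 7.90 in CBD_LPS and 10.13, 10.78 and 11.70 in Cntr, 85.1% lower (log2 -2.74 ± 0.38 SE, adjusted p = 5.5e-05). Jdp2, a dimerization partner of Jun, had 11.81 and 12.10 in CBD_LPS and 8.54, 8.93 and 9.65 in Cntr (log2 2.97 ± 0.29 SE, adjusted p = 1.1e-06). The groups of both genes were apart, in opposite directions. Atf3, a repressor of inflammatory genes, rose by 2.04 in log2 (11.64 and 12.44 in CBD_LPS, 9.53, 9.97 and 10.80 in Cntr, adjusted p = 0.00090, and 0.061 without CBD_LPS replicate 2), and Maff rose by 1.33, with 0.01 at its other probe (adjusted p = 0.67). Jun had 8.63 and 8.98 in CBD_LPS and 8.25, 8.32 and 8.74 in Cntr and did not pass the test.

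About cell division, cyclin D1 and a share of the replication genes were lower, and 2 inhibitors of the cycle were higher. Ccnd1, cyclin D1, had 10.90 and 9.31 in CBD_LPS and 12.84, 13.08 and 13.34 in Cntr, 87.5% lower (log2 -3.00 ± 0.29 SE, adjusted p = 8.0e-07), and its 4 probes were all called. Cdkn1a, the inhibitor p21, had 13.63 and 13.45 in CBD_LPS and 10.03, 10.35 and 10.52 in Cntr (9.31-fold, adjusted p = 7.8e-06). Cdkn2b, the inhibitor p15, had 12.13 and 13.69 in CBD_LPS and 8.93, 9.58 and 9.78 in Cntr (10.9-fold, adjusted p = 3.6e-05). Gadd45a, a growth arrest gene, rose by 2.13, and these 3 were the rising genes among 27 of the G1 to S transition, of which 10 fell (6 without CBD_LPS replicate 2, 4 with median scaling). Of 33 genes of DNA replication and mitosis 11 fell and 1 rose, with a median log2 fold change of -0.23. Cdc6, which loads the replicative helicase, had 9.13 and 8.94 in CBD_LPS and 10.37, 10.59 and 10.82 in Cntr (log2 -1.54, adjusted p = 4.3e-05), and its other probe gave 0.00 (adjusted p = 0.99). Rrm2, a ribonucleotide reductase subunit, had 9.18 and 8.48 in CBD_LPS and 9.84, 10.01 and 10.10 in Cntr (log2 -1.16, adjusted p = 0.00063, 0.070 without CBD_LPS replicate 2 and 0.079 with median scaling). The helicase subunits Mcm2 and Mcm3 fell by 0.66 and 0.85 in log2, calls that were lost with median scaling (adjusted p = 0.82 and 0.64), that of Mcm3 also without CBD_LPS replicate 2 (0.25). The list had 12 lower genes without CBD_LPS replicate 1, 2 without replicate 2 and 1 with median scaling.

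Genes of apoptosis and p53 targets rose in 14 and fell in 2 of 26 measured genes. Casp4, the inflammatory caspase that senses cytosolic LPS, had 11.12 and 12.18 in CBD_LPS and 7.97, 8.14 and 8.64 in Cntr (log2 3.43 ± 0.36 SE, adjusted p = 2.8e-06). Bcl2a1a, an antiapoptotic protein of the BCL2 family, had 12.82 and 13.13 in CBD_LPS and 9.02, 9.58 and 10.21 in Cntr (log2 3.38, adjusted p = 4.6e-07), and Bcl2a1d rose by 1.99. The Bcl2a1 genes are near-identical copies, so a probe may measure more than one of them. Fas, a death receptor, had 9.98 and 9.30 in CBD_LPS and 7.69, 7.73 and 7.76 in Cntr (log2 1.91, adjusted p = 1.0e-06), with 0.00 at its other probe (adjusted p = 0.98). The p53-induced gene Bbc3 stood 0.13 higher in log2 (adjusted p = 0.012), with 0.03 at its other probe, and its call was lost without CBD_LPS replicate 2 (adjusted p = 0.18), with median scaling (0.064) and with both groups fitted alone (0.059). Without CBD_LPS replicate 2 the list had 10 higher genes and none lower, and with median scaling 9 and none.

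Homeostatic microglia genes fell in 10 of 23 measured genes and rose in none, with a median log2 fold change of -0.48. Mef2c, a transcription factor of mature microglia, had 11.35 and 9.93 in CBD_LPS and 12.57, 12.76 and 12.94 in Cntr (log2 -2.14 ± 0.27 SE, adjusted p = 1.8e-05). Mertk, a receptor for the uptake of apoptotic cells, had 7.78 and 7.74 in CBD_LPS and 8.98, 9.33 and 9.48 in Cntr, 65.4% lower (adjusted p = 9.6e-07). P2ry6, a receptor for UDP, fell by 1.52 in log2 (adjusted p = 0.027), a call lost without CBD_LPS replicate 1 (adjusted p = 0.061), without replicate 2 (0.29) and with median scaling (0.17). Cx3cr1, the fractalkine receptor, had 7.89 and 7.65 in CBD_LPS and 8.04, 8.14 and 8.69 in Cntr and did not pass the test (log2 -0.47, adjusted p = 0.24), but passed it with the authors' values or without background correction (-1.18, adjusted p = 0.0077). The number of lower genes was 6 without CBD_LPS replicate 1, 4 without replicate 2 and 5 with median scaling. Among the largest falls without overlap over all genes were those of Klhl6, Gpr183 and Cytip. Klhl6, a ubiquitin ligase adaptor of lymphoid and myeloid cells, had 10.01 and 9.02 in CBD_LPS and 13.41, 13.56 and 13.73 in Cntr, 93.9% lower (log2 -4.04 ± 0.35 SE, adjusted p = 2.3e-07). Gpr183, the oxysterol receptor EBI2, had 8.24 and 7.85 in CBD_LPS and 11.77, 12.03 and 12.26 in Cntr, 93.6% lower (log2 -3.98, adjusted p = 2.9e-06). Cytip, a regulator of leukocyte adhesion, had 8.51 and 7.996 in CBD_LPS and 11.30, 11.94 and 12.15 in Cntr, 91.4% lower (log2 -3.54, adjusted p = 1.7e-06). The lack of overlap was a condition for choosing these 3 genes, and it held for 20.8% of all probes. Inpp5d, the lipid phosphatase SHIP1, fell by 2.26 in log2, and Nfam1, an ITAM-bearing receptor, by 2.71.

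Of the receptors and enzymes tied to cannabinoid and purine signaling, 3 of 26 measured genes rose and 5 fell. Daglb, which makes the endocannabinoid 2-arachidonoylglycerol, had 9.38 and 8.62 in CBD_LPS and 11.20, 11.72 and 12.11 in Cntr, 84.6% lower (log2 -2.70 ± 0.29 SE, adjusted p = 3.9e-06). Cnr2, the cannabinoid receptor CB2, was undetected in CBD_LPS (7.65 and 7.66) and stood at 7.87, 8.01 and 8.14 in Cntr, at least 1.21-fold lower (adjusted p = 0.0013). Cnr1, the receptor CB1, had 7.92 and 7.69 in CBD_LPS and 7.67, 7.73 and 7.78 in Cntr and did not pass the test (log2 0.07). Its difference without CBD_LPS replicate 2 was 0.19 in log2. All of these signals lay near the lower end of the scale. Aqp9, a channel for water and glycerol listed with these genes, had 12.53 and 13.36 in CBD_LPS and 7.89, 8.03 and 8.20 in Cntr (30.02-fold, adjusted p = 4.5e-08). Vegfa, a growth factor of the hypoxia list, had 11.04 and 11.56 in CBD_LPS and 8.88, 9.20 and 9.28 in Cntr (4.42-fold, adjusted p = 2.7e-06). Pdk1, an inhibitory kinase of pyruvate dehydrogenase, fell by 1.36 in log2 (adjusted p = 1.0e-05, and 0.13 with median scaling). In all, 2 of the 25 genes of glycolysis and the hypoxia response rose and 2 fell (8% each). None of 55 cytosolic ribosomal protein genes and none of 24 genes of sterol synthesis and efflux was called by limma (7 and 2 at an unadjusted p under 0.05). Of 46 subunits of the respiratory chain and ATP synthase 3 fell, by 0.19 to 0.45 in log2, and of 33 genes of lysosome and autophagy 2 rose, Sqstm1 and the channel gene Mcoln2.

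**Figure D2:**
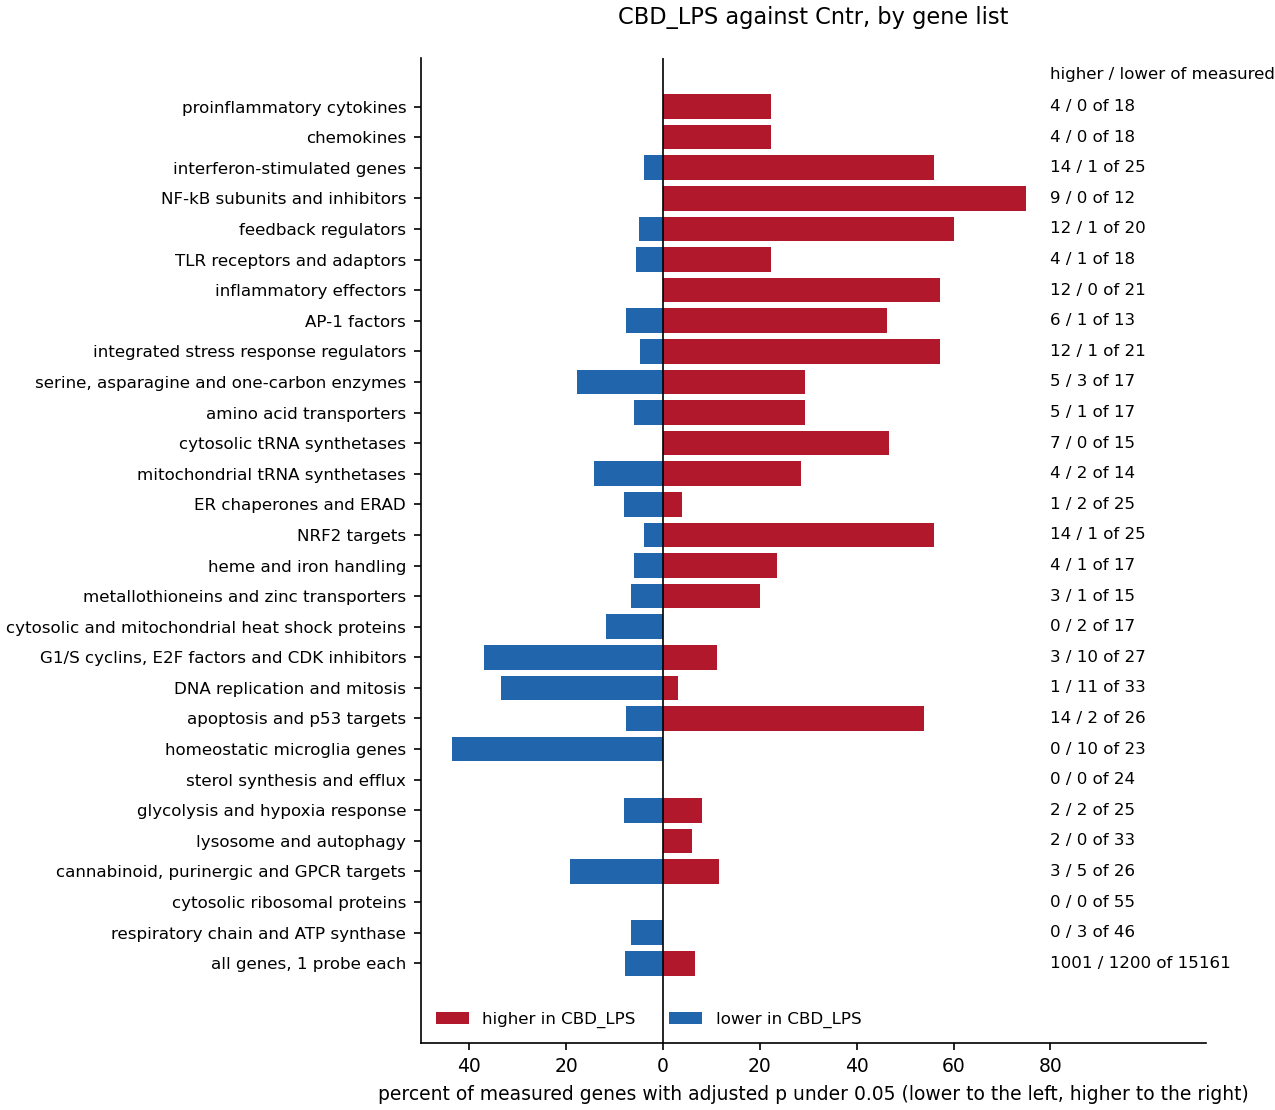
Share of the measured genes of each list with an adjusted p under 0.05 in CBD_LPS against Cntr, higher to the right and lower to the left of 0 (horizontal axis, percent), with the counts at the right and all 15161 genes in the lowest row. NF-kB subunits and inhibitors had 9 of 12 genes higher and none lower, homeostatic microglia genes had none higher and 10 of 23 lower, and over all genes 1001 were higher and 1200 lower.

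The combined treatment was also set against each agent alone in the same fit. Against LPS, 796 probes (3.23%) were called in CBD_LPS, and against CBD 669 probes (2.72%). These comparisons share the CBD_LPS arrays with the comparison against Cntr. In the medians of log2 fold changes against Cntr, proinflammatory cytokines had 0.43 in CBD_LPS and 0.78 in LPS, chemokines 0.34 and 0.69, and inflammatory effectors 1.18 and 1.64. Interferon-stimulated genes had 1.44 and 1.92, NF-kB subunits and regulators 1.21 and 1.40, and Toll-like receptor genes and adaptors 0.08 and 0.17. Feedback regulators went the other way, with 1.06 in CBD_LPS and 0.97 in LPS. Differences between these medians were not tested. For 2 of these lists the direction depended on the CBD_LPS array. Replicates 1 and 2 had medians of 1.98 and 0.93 for interferon-stimulated genes, and of 1.29 and 1.48 for NF-kB subunits and regulators. Against LPS, 1 chemokine and 2 feedback regulators were called higher in CBD_LPS, and 1 gene each of the cytokines, chemokines, effectors and feedback regulators lower. Tnf had 14.71 and 14.15 in CBD_LPS and 14.50 to 14.85 in LPS (difference -0.22 in log2, adjusted p = 0.85), and 10.18 and 9.83 in CBD. No interferon-stimulated gene was called against LPS, while 10 of the 25 were higher than in CBD. The cytokine that was called was Il1b, lower in CBD_LPS than in LPS by 2.45 in log2 (adjusted p = 0.012), where the LPS arrays ran from 13.85 to 14.98.

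Among stress genes the medians of log2 fold changes against Cntr were 1.15 in CBD_LPS and 0.83 in CBD for regulators of the integrated stress response, 0.63 and 0.32 for NRF2 targets, and 0.17 and 0.04 for amino acid transporters. Other lists had the lower median in CBD_LPS. These were cytosolic tRNA synthetases (0.36 and 0.40), mitochondrial ones (0.05 and 0.22) and enzymes of serine, asparagine and one-carbon metabolism (0.04 and 0.09). Differences between these medians were not tested. For 2 of these lists the direction depended on the CBD_LPS array. Replicates 1 and 2 had medians of 0.21 and 0.80 for NRF2 targets, and of 0.30 and 0.50 for cytosolic tRNA synthetases. Ddit3 had 10.24 and 12.69 in CBD_LPS and 13.24 and 10.996 in CBD (difference -0.65, adjusted p = 0.78), whereas it was higher than in LPS by 2.72 (adjusted p = 0.0041). Mt2 had 12.67 and 13.09 in CBD_LPS and 13.17 and 13.04 in CBD (difference -0.22, adjusted p = 0.88), and was higher than in LPS by 3.20 (adjusted p = 8.1e-07). No regulator of the integrated stress response, NRF2 target, amino acid transporter or cytosolic tRNA synthetase was called against CBD. Against LPS, 8 of 21 stress response regulators, 8 of 25 NRF2 targets, 5 of 17 transporters and 8 of 15 synthetases were higher, and 1 regulator and 1 transporter were lower. With only 2 arrays in each of the groups CBD_LPS and CBD, a p that misses the threshold does not show equal levels.

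**Figure D3:**
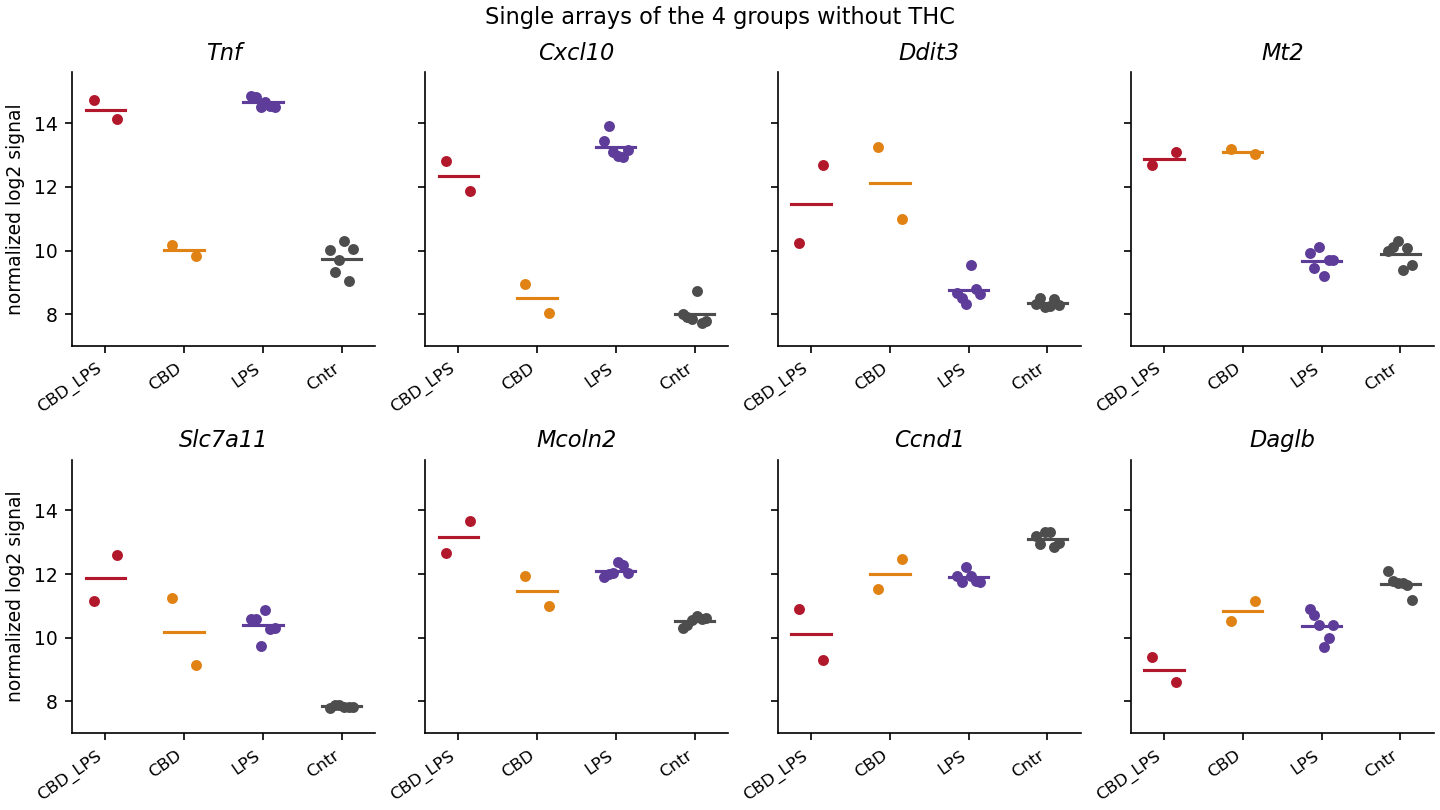
Normalized log2 signal (vertical axis) of 8 genes on every CBD_LPS, CBD, LPS and Cntr array, with bars at the group means. Tnf and Cxcl10 were high with LPS in either group, Ddit3 and Mt2 with CBD in either group, and Mcoln2 lay above and Ccnd1 and Daglb below both single treatments in CBD_LPS.

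Of the 3073 probes called against Cntr, 75 were also called against both LPS and CBD. In CBD_LPS 48 of these were higher than in all 3 groups and 17 lower. The p-values below are also those that decided which probes belong to this set. With CBD_LPS and CBD fitted alone, 0 probes were called against CBD. Mcoln2, a cation channel of endosomes and lysosomes, had 12.65 and 13.68 in CBD_LPS, 11.96 and 10.997 in CBD, 11.92 to 12.39 in LPS, and 10.32, 10.57 and 10.70 in Cntr. It was higher by 2.63 ± 0.22 (SE) in log2 than in Cntr, by 1.06 than in LPS (adjusted p = 0.010) and by 1.69 than in CBD (adjusted p = 0.0011). Cxcl16 was higher than in LPS by 0.48 and than in CBD by 0.71, and so were Dusp8, a MAP kinase phosphatase (0.77 and 1.02), and Bik, a proapoptotic BH3 protein (0.51 and 0.59). Ccnd1 was lower in CBD_LPS than in LPS by 1.80 in log2 (adjusted p = 0.0013) and lower than in CBD by 1.91 (adjusted p = 0.0038). Daglb was lower than in LPS by 1.36 (adjusted p = 0.014) and than in CBD by 1.85 (adjusted p = 0.0060). For Pald1, a phosphatase-like protein, these differences were 0.65 and 1.34.

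Whether the joint change differed from the sum of the 2 single changes in log2 was tested by the interaction term. It was called for 2 of 24611 probes (0.00813%), while 1188 probes (4.83%) had an unadjusted p under 0.05. Pi16, a peptidase inhibitor, was detected on both CBD arrays (7.99 and 7.91) and on no array of CBD_LPS, LPS or Cntr (interaction -0.24 ± 0.03 SE, adjusted p = 0.0035), so that this value is set against background. No interaction was called without background correction, with median scaling, with the authors' values or without CBD replicate 1. For Klhl6 the interaction was 0.02 (95% interval -1.003 to 1.05), for Mt2 0.00 (-0.72 to 0.72), for Il1b -2.45 (-3.99 to -0.91) and for Ccnd1 -0.70 (-1.55 to 0.14), none of which passed the adjusted test.

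The 2 CBD_LPS arrays had a lower correlation with each other than any pair of Cntr arrays. Their Pearson correlation across probes, which are not independent replicates, was 0.986, against 0.987 to 0.998 between Cntr arrays. The median absolute difference between replicates 1 and 2 was 0.228 in log2 in CBD_LPS, 0.177 in CBD, 0.0979 in LPS and 0.156 in Cntr, and 341 probes of CBD_LPS differed by more than 1. Genes called against Cntr with the largest differences between both arrays were Ptgir, Il1b, Angptl6 (9.01 and 11.81), Lcn2, Ptpn14, a tyrosine phosphatase (8.37 and 10.94), and Ddit3. Without CBD_LPS replicate 2 the calls of Angptl6 (adjusted p = 0.78) and Ptpn14 (0.15) were lost. The direction of the difference varied between gene groups. Interferon-stimulated genes were higher on replicate 1 (13 of 15 called), while 12 of 13 called regulators of the integrated stress response and 14 of 15 called NRF2 targets were higher on replicate 2. Over all 2201 called genes, 1162 were higher on replicate 1 and 1038 on replicate 2. These hold 1001 rising and 1200 falling genes, whereas the called genes of the lists above rose with 1 exception each. The share over all called genes is therefore not a like background for these lists. Replicate 2 lay farther from the Cntr mean than replicate 1 for 72.8% of all called probes. Across all probes the difference between replicates 1 and 2 of CBD_LPS had a correlation of -0.72 with the same difference in CBD and of -0.09 with that in Cntr. These groups share no array. The replicate that stood higher in stress genes was thus the second in CBD_LPS and mostly the first in CBD, with replicate 1 above replicate 2 in CBD for 12 of the 13 called stress response regulators. Whether these arrays carry the right labels was not tested, and every comparison of CBD_LPS with CBD and every interaction value rests on them.

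**Figure D4:**
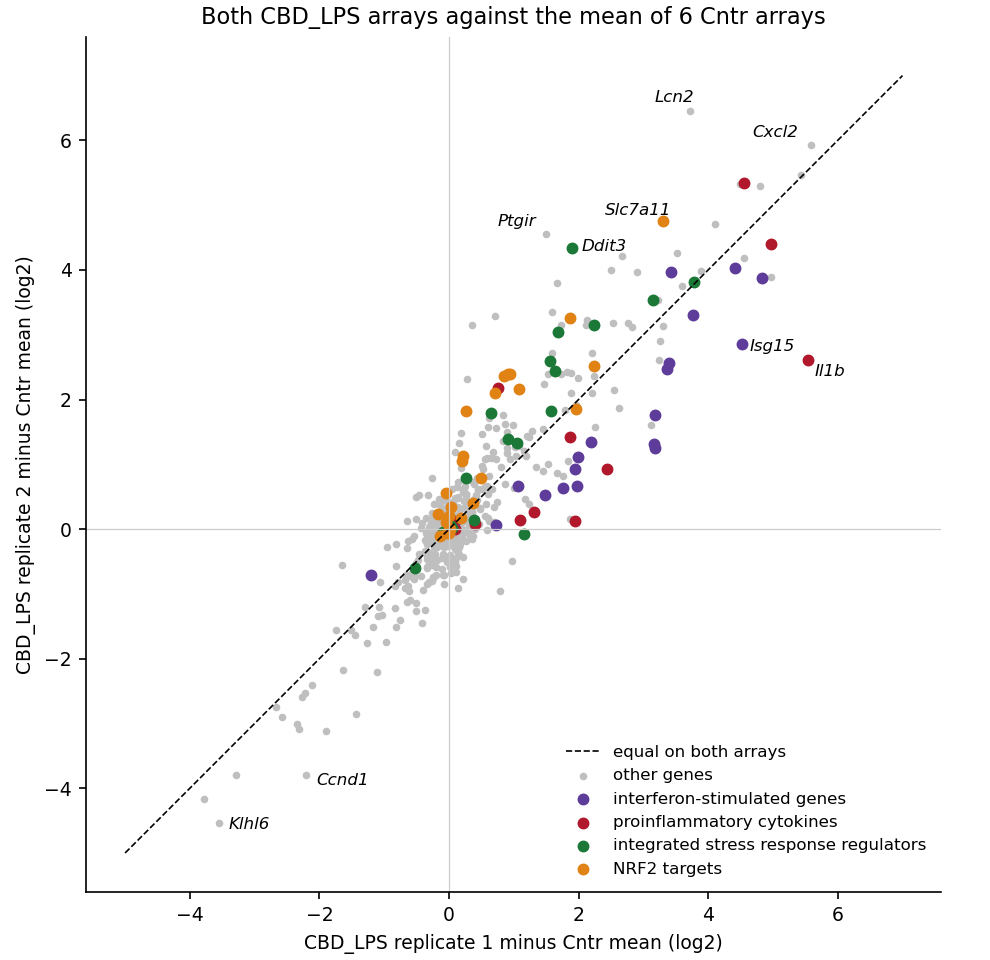
Difference from the mean of 6 Cntr arrays on CBD_LPS replicate 1 (horizontal axis, log2) and on CBD_LPS replicate 2 (vertical axis, log2), a point for each gene of the lists or named by rule, with 4 lists in color. Interferon-stimulated genes lie mostly below the dashed line of equality, where Il1b has 13.29 and 10.36 on the arrays, and stress response regulators and NRF2 targets mostly above it, where Ddit3 has 10.24 and 12.69.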

How the data were processed

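BV-2 cells were measured on 24 Illumina MouseRef-8 v1.1 arrays from total RNA labelled as biotin cRNA. The authors deposited, per array, a probe intensity on a linear scale without background subtraction and a detection p-value, and also log2 values that equal quantile-normalized log2 intensities, which served here only as an alternative. The image software is not given in the sources used here. Groups came from the condition labels.

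Intensities were background-corrected and quantile-normalized with neqc of limma 3.58.1 (R 4.3.3, offset 16). A mean per group was fitted over all 24 arrays, so that the groups share an estimate of the spread, with eBayes moderation and Benjamini-Hochberg adjustment over 24611 probes. CBD_LPS was compared with Cntr, LPS and CBD, and the interaction was tested. Of the 2 probes called for it, 1 is not reported here. Where a group was undetected on all its arrays, the fold is a bound against the lowest detected signal of those arrays. The number of arrays limits the precision.

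Each of 15161 genes was represented by its brightest probe, and 4760 probes had no gene named here. Of 770 genes in the lists 674 were measured. Genes named are the 12 largest rises and 12 largest falls without overlap between groups, the first 2 measured members of each list and up to 4 called members with the largest change, the called interactions, and the 6 called genes with the largest difference between both CBD_LPS arrays; Gclm, Trib3, Zfp36l1, Eif2ak1, Irf8, Slc7a6, Dusp8 and Bik were chosen after their values were seen. The members and lists were chosen with earlier results of these data known. Alternatives were another background correction, offset, scaling, filter on dim probes, prior, array weights, the compared groups alone, the replicate number as a block, the other probe of a gene, and leaving out each array.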

Additional observations from a re-analysis of the deposited data

Results flagged for a closer look

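In groups of 6 arrays, an array standing far from the other 5 was found in 12 of 232 groups examined over the 116 genes named, 6 in Cntr and 6 in LPS, and chance gives about 1 in 20. In Cntr, replicate 4 was highest for Cxcl10 (8.72, next 8.01), replicate 3 for Pdk1 (11.71, next 11.51), replicate 5 for Ptpn14 (7.67, next 7.65), and replicate 6 for Irf8 (11.46, next 10.83), Ptgs2 (7.83, next 7.68) and Zfp36l1 (11.37, next 10.88). In LPS, replicate 4 was highest for Csf3 (14.63, next 13.35), Pdia4 (11.31, next 11.11) and Ptpn14 (7.998, next 7.75) and lowest for Cnr2 (7.61, next 7.65), replicate 2 was lowest for Jun (8.53, next 8.95) and replicate 1 highest for Slc11a2 (11.41, next 11.15). Groups of 2 arrays were not examined in this way.

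The interaction test called Pi16 (-0.24 in log2, adjusted p = 0.0035 by limma), which was undetected on every CBD_LPS, LPS and Cntr array. No interaction was called without background correction, with median scaling, with the authors' values or without CBD replicate 1.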

How the results depend on the processing

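The number of probes called against Cntr, 3073 (1431 higher, 1642 lower), was 726 (520 and 206) with median scaling and 1772 (888 and 884) with both groups fitted alone, and ran from 1241 (720 higher, 521 lower) without CBD_LPS replicate 2 to 3053 (1542 and 1511) without CBD_LPS replicate 1, where the most lower probes, 1620, were called without Cntr replicate 6. Against LPS, 796 probes became 1324 at the unadjusted threshold of the methods (0.005), 130 with median scaling, 336 with array weights, 102 with the groups alone and 440 with the replicate number as a block, and 110 to 1848 without a CBD_LPS array. Against CBD, 669 became 1101 at that threshold, 209 with median scaling, 367 with array weights and 0 with the groups alone, and ran from 377 without CBD replicate 2 to 744 without CBD_LPS replicate 1. The 2 interaction calls became 142 at that threshold, 0 without background correction, with median scaling or with the authors' values, and 0 to 78 without an array. The cause was not tested. Nothing in the labels says that replicate numbers mark a shared culture or day, and the differences between replicates 1 and 2 of CBD_LPS and CBD had a correlation of -0.72. With the numbers of the CBD arrays crossed in the block, an alternative chosen after seeing the data, 606 probes were called against CBD and 3 interactions. With the replicate number as a block 2273 probes were called against Cntr.

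Of 116 genes named, 100 were called. With median scaling 25 calls were lost, without CBD_LPS replicate 2 23, without replicate 1 8, with the groups alone 12, and with array weights or the block 6 each, and no direction changed under these. The other probe had the opposite sign for Aars (-0.69), Nos2 (-0.0126), Cdc6 (0.0005) and Fas (-0.0024). Folds near the lower end of the scale are limited by signal over background.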
